A study of Mus musculus with 11 samples.

Results

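Thymic lymphomas driven by MYC were compared by Dnmt3b genotype: 3 Dnmt3b-deficient lymphomas against 3 wild-type lymphomas, which are 6 of the 11 mouse samples in the series. The members were taken from the sample titles, and every probe set with a single gene symbol was considered. RNA came from the thymus of FVB mice, and each sample was hybridised to 1 Affymetrix whole-transcript array from 300 ng of total RNA. Wild-type lymphomas carried EμSR-tTA, Teto-MYC, the Rosa26LOXPEGFP reporter and Dnmt3bF/F, a floxed but intact gene, and had no Cre transgene. The Dnmt3b-deficient lymphomas had the same driver, oncogene and reporter together with Teto-Cre, and are labelled Dnmt3b-/-. All 6 tumors therefore share the tetracycline-controlled MYC transgene and its blood-cell activator, while the Cre transgene and the loss of Dnmt3b go together and cannot be told apart here. Tumors were taken once tumor burden was apparent, so no fixed age is given, and went into TRIzol unsorted. Of the other groups, normal thymocytes (n = 3) carried the activator, Teto-Cre and the reporter with Dnmt3b+/+ and no MYC transgene. Pre-tumor Dnmt3b-deficient thymocytes (n = 2) had the genotype of the deficient tumors and were sorted for EGFP. Both were taken at 24 days. These groups entered the fit, where they help to estimate the spread, and are used below as independent samples.

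Dnmt3b is one of the enzymes that place new methyl groups on cytosines followed by guanine (CpG), while Dnmt1 copies existing methylation when a cell divides. Methylation of CpG-rich promoters is known to keep germline genes and other tissue-restricted genes silent. MYC binds the sequence CACGTG, the E-box, with its partner Max, and is known for driving ribosome production and growth. A tumor taken whole from the thymus also holds myeloid cells, so marker genes of these cells are described beside the tumor genes.

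Levels are the deposited log2 values, so that a difference of 1 is a doubling. The table has a floor at 3.32, the log2 of 10, where 23.62% to 25.65% of all values of an array stand, probable controls included. A difference against an array at the floor is a lower limit. Array medians, over the same values, were 4.55 to 4.62. Precision is limited by how few arrays there are. Between lymphomas, Pearson's r over the 17041 genes above the floor was 0.951 to 0.985, a description with no test. It was highest between wild-type replicates 1 and 2 (0.985) and next between deficient replicates 2 and 3 (0.979). The tumors did not group by genotype throughout. Wild-type replicate 3 had r of 0.975 and 0.977 with deficient replicates 2 and 3, but 0.970 and 0.967 with wild-type replicates 1 and 2. In the 6 lymphomas, 15 of 18 T lineage markers had a level above 6 in every tumor, while 1 stood at the floor in some.

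Differences between the genotypes were small in number after adjustment. Of 28939 probe sets, 2 (0.00691%) passed a Benjamini-Hochberg adjusted p of 0.05 in limma, 1 higher (0.00346%) and 1 lower (0.00346%), and 1823 (6.3%) had an unadjusted p under 0.05. In 2310 probe sets (7.98%) the 3 samples of one genotype all lay above the 3 of the other, here called no overlap. Counted by gene with 1 probe set each, 1027 of 19938 genes were higher without overlap in the deficient tumors (5.15%) and 671 were lower (3.37%). Shares of all 19938 genes, here and below, include 2897 genes at the floor in all 6 lymphomas. They are therefore lower than the shares among genes above the floor. An unadjusted p under 0.05 was reached by 782 genes that were higher (3.92%) and 587 that were lower (2.94%). The genes below are therefore descriptions of these 6 tumors unless an adjusted p is given as passing.

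The 1 probe set that rose is annotated to AI506816, a gene known by a sequence name. Wild-type lymphomas had 3.32, 3.45 and 3.32, and deficient lymphomas had 8.93, 7.97 and 8.87. The rise was 5.22 (SE 0.25), which is 37.4-fold against a group that is partly at the floor, with an adjusted p of 0.00171. The same probe set was at 8.91 and 8.52 in the pre-tumor deficient thymocytes and at 3.32 in all 3 normal samples, so that all 5 samples with the Dnmt3b-/- label and Teto-Cre were high. It missed the threshold when the 6 lymphomas were fitted alone (adjusted p = 0.266). The identity of this probe set is uncertain: the 10 named probe sets nearest to it by number all belong to genes on chromosome 1, beside Dusp12, while RefSeq places AI506816 on chromosome 5.

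Ifnz, an interferon gene of the type I family, was the 1 probe set that fell. Its level was 5.33, 5.41 and 5.54 in wild-type lymphomas and 4.84, 4.76 and 4.72 in deficient lymphomas, a fall of 0.65 (SE 0.05, adjusted p = 0.0359). In the pre-tumor deficient thymocytes it was 4.46 and 4.45, against 5.93 to 5.96 in normal thymocytes. The 10 named probe sets nearest to it by number lie on chromosome 4, as Ifnz does. The call was lost without wild-type replicate 2 (0.103), without deficient replicate 2 (0.0632), without any 1 of the normal samples (0.135 to 0.184) and without either pre-tumor sample (0.0915 each). It was also lost when only the 6 lymphomas were fitted (0.525).

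**Figure D1:**
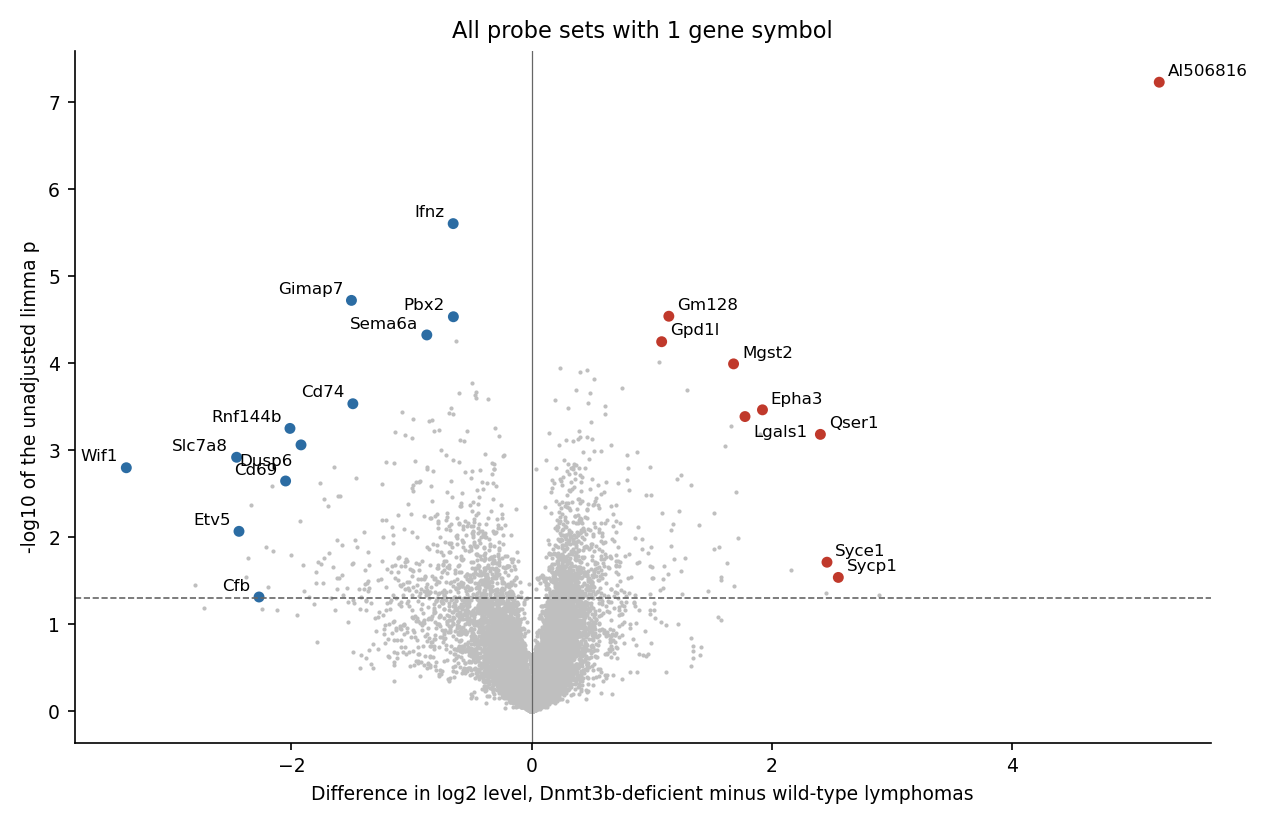
Each point is 1 of the 21789 probe sets with a single gene symbol, with the difference in log2 level (deficient minus wild-type lymphomas) on the x axis and minus log10 of the unadjusted limma p on the y axis. The dashed line marks the unadjusted threshold, and AI506816 at 5.22 and Ifnz at -0.65 are the points that passed adjustment, while the wide differences such as Wif1 at -3.37 and Sycp1 at 2.55 lie lower on the y axis.

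Ranked by the moderated t, the genes that were highest in the deficient tumors mixed enzymes and regulators. Ment came first, in a ranking that kept Ment by choice but left out AI506816 and the other predicted or sequence-named genes. The array lists Ment as Gm128, and it is named for its methylation in normal thymocytes. It was at 3.86, 4.04 and 4.07 in wild-type and at 4.91, 5.28 and 5.20 in deficient lymphomas. The difference was 1.14 (SE 0.13, adjusted p = 0.140), and the closest samples of the 2 genotypes were 0.84 apart. Gpd1l, a relative of glycerol-3-phosphate dehydrogenase, had levels of 6.70, 6.90 and 6.71 against 7.67, 7.76 and 8.13, a difference of 1.08 (SE 0.13, adjusted p = 0.164). Lmo4, a LIM-domain partner of transcription factors, was at 6.60, 6.23 and 6.10 in wild-type and at 7.21, 7.32 and 7.59 in deficient tumors. Both genes were separated by more than the range within either genotype.

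Mgst2, a membrane-bound glutathione transferase, had the next largest t. Its levels were 4.68, 4.47 and 4.97 in wild-type and 6.18, 6.21 and 6.78 in deficient tumors, a difference of 1.68 (SE 0.22, adjusted p = 0.226) with a gap of 1.21 between the closest samples. The remaining 6 genes of the ranking were B3gnt5 (0.24), a glycosyltransferase of glycolipid synthesis, Txndc5 (0.46), an oxidoreductase of the endoplasmic reticulum, Fndc3b (0.41), Adi1 (0.52), an enzyme of methionine salvage, Sytl1 (0.76), a partner of Rab27 in vesicle transport, and Ly6k (1.29), a membrane-anchored Ly6 protein, with the difference in log2 level in brackets. B3gnt5 was at the floor on 2 wild-type arrays and its deficient values reached no more than 3.61, so its rank rests on a small spread near the floor.

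Among genes lower in the deficient tumors, Gimap7 followed Ifnz. Gimap7 belongs to the GTPases of immunity-associated proteins, which act in lymphocyte survival. It stood at 5.65, 5.69 and 5.69 in wild-type lymphomas and at 3.80, 4.32 and 4.41 in deficient lymphomas. The difference was -1.50 (SE 0.16, adjusted p = 0.137), and the gap of 1.25 was the widest among the ranked genes with lower levels. Pbx2, a homeobox transcription factor, differed by -0.65 (SE 0.07), and Sema6a, a membrane-bound semaphorin, by -0.87 (SE 0.10), with adjusted p-values of 0.140 and 0.164.

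Next came Rsrp1 (-0.63), Rybp (-0.50), Mgam (-0.47), Nck2 (-0.61), an adaptor of receptor signalling, Nbr1 (-0.48), a receptor of selective autophagy, and Ing4 (-0.46), a reader of methylated histone H3, given again as differences in log2 level. Rybp, a subunit of Polycomb repressive complex 1, had the identical value of 5.41 on all 3 wild-type arrays and 4.88 to 4.93 in deficient tumors, so its t rests on a group without spread. The second Rybp probe set did not separate the genotypes, with a difference of -0.07 (SE 0.26). Values that recur exactly are common in this table: of 20028 probe sets above the floor on all 11 arrays, 8007 (39.98%) repeat a value at 4 decimals. Of the 45 genes ranked here by any measure, 42 had 6 distinct lymphoma values, and B3gnt5, Rybp and Sycp1 did not.

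**Figure D2:**
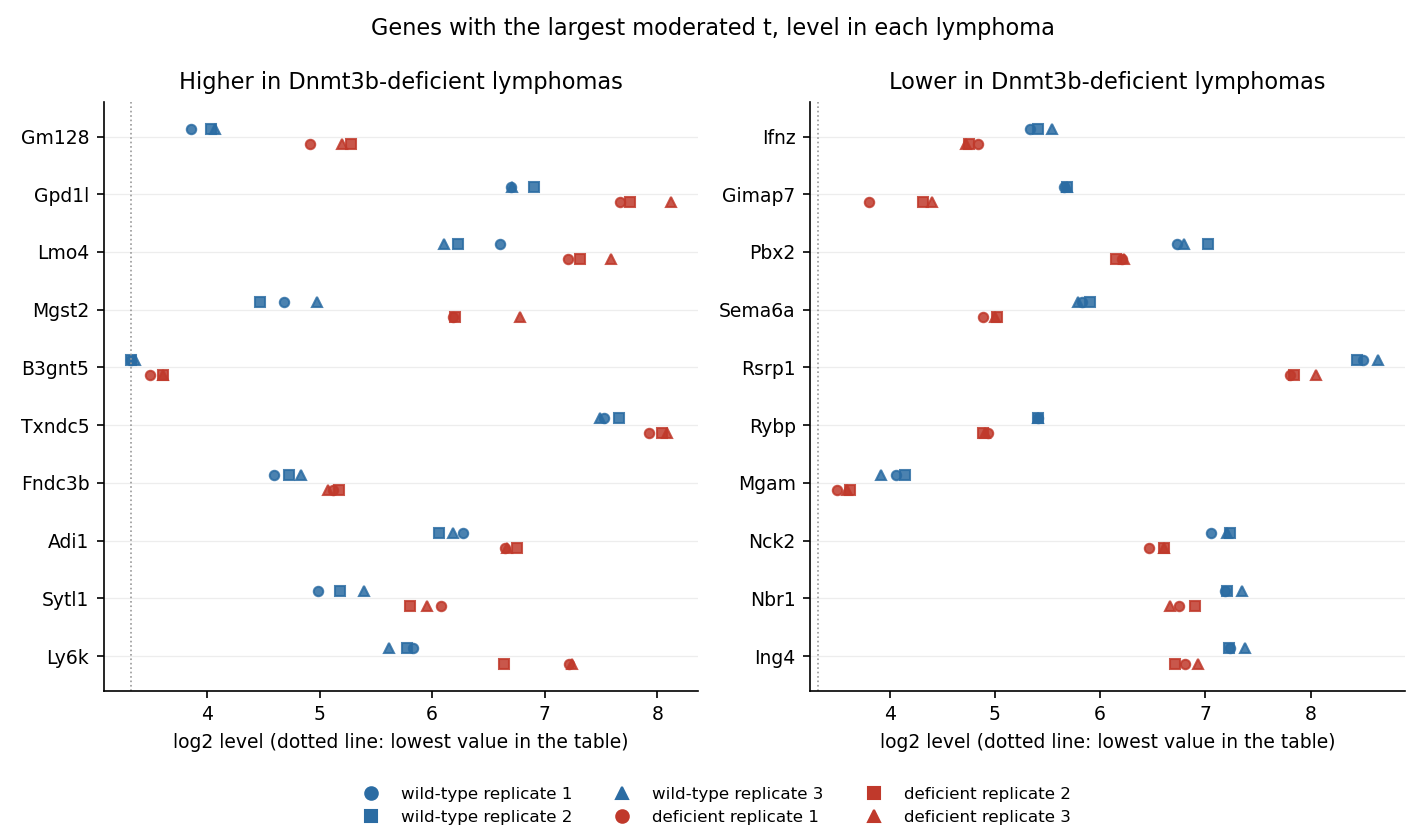
Log2 level in each lymphoma (x axis) of the 10 genes with the largest moderated t in each direction, with wild-type tumors in blue, deficient tumors in red, 1 symbol shape per replicate number and a dotted line at the lowest value in the table. In every gene the groups are apart, by 1.25 in Gimap7 and by 0.13 in B3gnt5, where 2 of the wild-type points lie on the floor.

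Gaps between the groups picked out other genes on the higher side. Qser1, a chromatin protein known to guard CpG-rich regions from methylation by the Dnmt3 enzymes, had the widest gap of the ranked genes, 1.34. It was at 4.64, 3.55 and 3.98 in wild-type and at 6.86, 6.54 and 5.98 in deficient lymphomas, a difference of 2.40 (SE 0.43, adjusted p = 0.309). A second Qser1 probe set gave 1.90 (SE 0.34), also without overlap. Epha3, a receptor of the ephrin family, had a gap of 1.19: it lay between 3.41 and 3.68 in wild-type tumors and at 4.87, 5.37 and 6.20 in deficient tumors. The difference in Epha3 was 1.92 (SE 0.31, adjusted p = 0.268), while both pre-tumor samples (3.60 and 3.55) stood at the wild-type level.

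Lgals1, a secreted galectin that binds sugars on T cells, was high and even in the deficient tumors, at 10.87, 10.87 and 11.07, against 9.94, 8.82 and 8.73 in wild-type tumors. The difference was 1.78 (SE 0.29, adjusted p = 0.276). Pkn3, a protein kinase, differed by 1.66 (SE 0.29), Gphn, the scaffold protein gephyrin, by 1.61 (SE 0.30), and Klf3, a transcriptional repressor, by 1.33 (SE 0.30). Ranked by difference alone, Tspan2 (1.72), Itgb7 (1.70), an integrin chain of gut-homing lymphocytes, and Gsta4 (1.63), another glutathione transferase, joined these genes, with gaps of 0.49, 0.46 and 0.20. In these genes the groups were separate, but the deficient tumors varied more, as in Gsta4 (9.60, 7.80 and 7.47).

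On the lower side the largest difference belonged to Wif1, a secreted inhibitor of Wnt signals. It was at 9.16, 9.44 and 6.65 in wild-type and at 4.36, 5.42 and 5.35 in deficient lymphomas, a difference of -3.37 (SE 0.70, adjusted p = 0.396). Wild-type replicate 3 stood between the other wild-type tumors and the deficient ones, and normal thymocytes had 3.98 to 4.21. Slc7a8, an amino acid transporter, followed the same pattern with 7.01, 6.94 and 5.14 against 4.15, 3.89 and 3.67, a difference of -2.46 (SE 0.49). Rnf144b, a ubiquitin ligase, was at 7.52, 7.35 and 6.03 against 4.83, 4.99 and 5.05, a difference of -2.01 (SE 0.35). Without wild-type replicate 3 all 3 genes passed adjustment, with adjusted p-values of 0.00759 for Wif1, 0.00753 for Slc7a8 and 0.000256 for Rnf144b. This tumor is the wild-type one nearest to the deficient tumors in each of these genes, so the smaller values are no support for a difference.

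Genes of heparan sulfate and sulfated sugars were also among these differences. Extl3, a glycosyltransferase that starts heparan sulfate chains, differed by -2.16 (SE 0.49), and Chst2, a carbohydrate sulfotransferase, by -2.34 (SE 0.58). Of the 32 measured genes of heparan and chondroitin sulfate synthesis, 4 were lower and 3 higher at an unadjusted p under 0.05 (2.94% and 3.92% among all genes), and the list's median difference was 0.06. Ptpn14, a tyrosine phosphatase, differed by -1.64 (SE 0.34). Adamts3, a protease of procollagen, differed by -2.21 (SE 0.68) at the probe set ranked here, where wild-type replicate 3 (4.07) lay close to deficient replicate 2 (3.95). The annotation gives Adamts3 16 probe sets, and in all 16 wild-type replicates 1 and 2 lay above every deficient tumor, while 5 of them kept all 3 wild-type tumors above.

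Cfb, complement factor B, had the widest spread of the ranked genes, at 6.46, 9.09 and 4.56 in wild-type lymphomas and 4.35 to 4.48 in deficient ones. Its difference of -2.27 (SE 0.96, adjusted p = 0.789) was smaller than the range within the wild-type group, and the gap was 0.08.

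Gene families, formed from shared symbol stems, were ranked by their median difference over the 406 stems with at least 6 genes above the floor, as a description with no test. The Gimap family had the lowest median, -0.86, and all 8 of its measured genes had a negative difference, with 4 lower without overlap, in a family picked for its low median (3.37% of all genes were lower without overlap). Gimap8 was at 6.46, 6.31 and 6.25 in wild-type and at 5.55, 5.19 and 5.29 in deficient lymphomas, a difference of -0.996 (SE 0.18, adjusted p = 0.309). Gimap9 differed by -0.62 (SE 0.18) and Gimap5 by -0.55 (SE 0.22), both without overlap and led by low values in deficient replicate 1. Gimap4 did not separate the genotypes, since wild-type replicate 3 was at 7.24 and deficient replicate 2 at 8.94. With any 1 lymphoma left out all 8 differences stayed negative, and the median was -0.40 without deficient replicate 1. Over all genes, 7426 of 19938 differences were negative and the median of those above the floor was 0.02.

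The other stems with low medians were Ifitm (-0.40), Serpinb (-0.27), Arid (-0.25), Ccr (-0.23) and Csf (-0.23). Highest were Nop (0.26) and Nol (0.20), nucleolar proteins, Rpp (0.25), parts of ribonuclease P, Ndufs (0.24), subunits of respiratory complex I, Alg (0.20), enzymes of glycan assembly, and Tspan (0.20), the tetraspanins. Of the Nop genes 7 of 8 were positive, against 48.2% of all genes, and 4 were higher without overlap, against 5.15%, in a family picked for its high median. The median of Ifitm was 0.11 with the myeloid level, described below, in the fit. None of the family members named here passed adjustment.

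**Figure D3:**
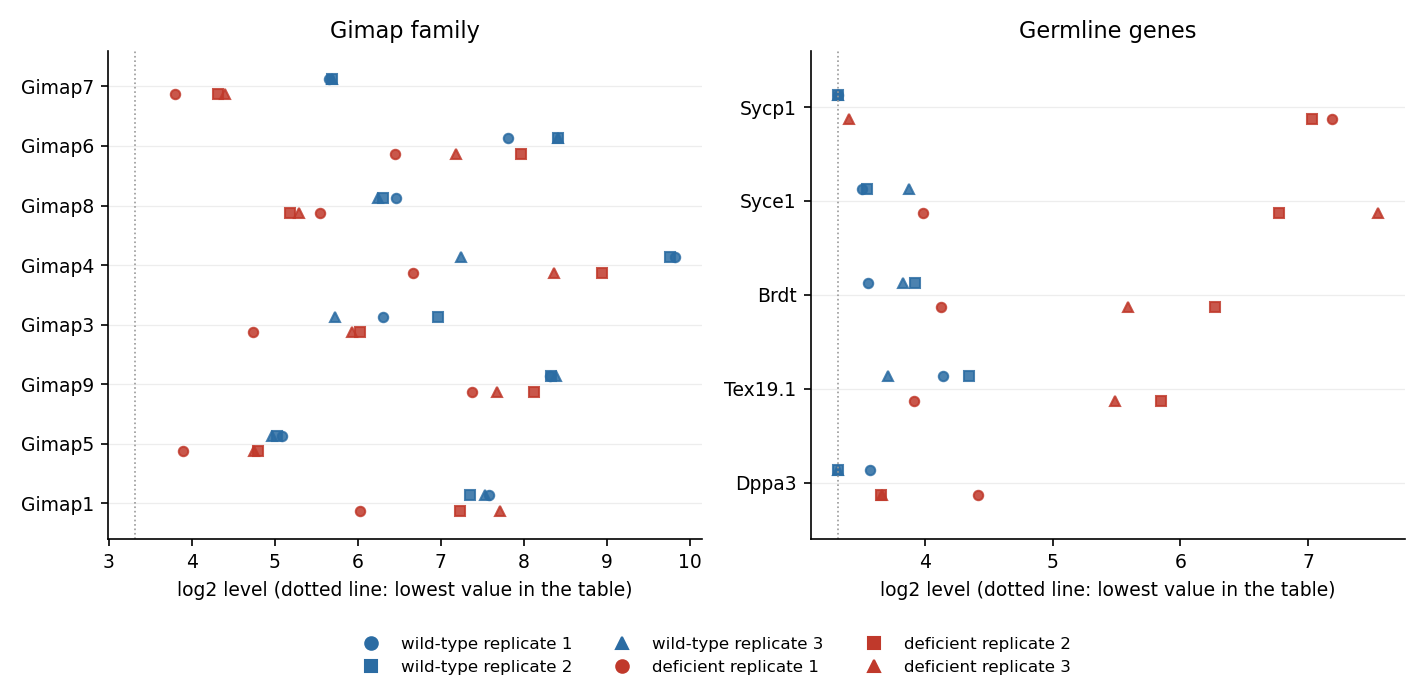
Log2 level in each lymphoma (x axis) of the 8 Gimap genes and of 5 germline genes, with wild-type tumors in blue, deficient tumors in red, a symbol shape per replicate number and a dotted line at the lowest value in the table. Gimap7 and Gimap8 separate the genotypes, deficient replicate 1 is lowest in 7 of the Gimap genes, and in Syce1 and Brdt the red circle of replicate 1 lies beside the wild-type tumors.

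Germline genes are among the best known targets of promoter methylation. Of 44 measured, 16 stood at the floor in all 6 lymphomas, 19 differences were positive and 9 negative, and none passed adjustment. Without overlap, 4 were higher (9.09% of the list, against 5.15% of all genes in that direction): Sycp1 and Syce1, proteins of the synaptonemal complex that holds chromosomes together in meiosis, Brdt, a testis bromodomain protein, and Dppa3, an oocyte and stem cell protein. No wild-type tumor had Sycp1 above the floor, and it was at 7.19, 7.03 and 3.41 in deficient tumors, a difference of at least 2.55 (SE 0.95). Syce1 was at 3.51, 3.54 and 3.87 against 3.98, 6.77 and 7.55, a difference of 2.46 (SE 0.83). Brdt was at 3.55, 3.92 and 3.83 against 4.12, 6.27 and 5.59, a difference of 1.56 (SE 0.48).

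Sycp1, Syce1 and Brdt were each high in 2 of the 3 deficient tumors, and not always in the same 2. Replicate 3 had Sycp1 at 3.41, close to the floor, and replicate 1 had Syce1, Brdt and Tex19.1 (3.91, against 5.85 and 5.49) near the wild-type level. The adjusted p was 0.0307 for Sycp1 without replicate 3, and 0.0145 for Syce1 and 0.0200 for Brdt without replicate 1. In each case the sample left out is the one whose value lay nearest to the wild-type tumors, so these values are no support for a difference. The pre-tumor deficient thymocytes, which did not enter the rule, had Sycp1 at 6.52 and 7.83 against the floor in all normal samples, and Syce1 at 5.63 and 6.49 against 3.49 to 4.09. Brdt did not follow, at 4.01 and 4.42 in pre-tumor and 4.07 to 4.12 in normal samples.

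Growth genes known to be induced by MYC were slightly higher in deficient tumors. Of 45 measured genes of ribosome biogenesis and metabolism, 41 differences were positive, the median was 0.23, and 13 were higher without overlap (28.9%, against 5.15% of all genes). None passed adjustment. Polr1b, a subunit of RNA polymerase I, was at 8.74, 8.96 and 9.13 in wild-type and at 9.68, 9.29 and 9.43 in deficient lymphomas, a difference of 0.53 (SE 0.13, adjusted p = 0.541). Srm, spermidine synthase, differed by 0.47 (SE 0.13), Nop56, a protein of the snoRNP that guides rRNA methylation, by 0.36 (SE 0.11) and Ldha, lactate dehydrogenase A, by 0.23 (SE 0.04). The mean of the list was 9.37, 9.21 and 8.99 in the deficient tumors and 9.06, 8.97 and 8.94 in the wild-type tumors, so deficient replicate 3 lay within the wild-type range. Positive differences numbered 36 without deficient replicate 1 and 35 without wild-type replicate 3.

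Of 40 S phase genes, 33 differences were positive with a median of 0.12, and 9 were higher without overlap (22.5%, against 5.15% of all genes). The list's mean was 8.06, 8.03 and 7.88 in deficient and 7.88, 7.77 and 7.87 in wild-type tumors. Deficient replicate 3 was thus level with wild-type replicate 1. Cdt1, which loads the replicative helicase, was at 8.10, 8.47 and 8.61 against 9.25, 9.02 and 9.28, a difference of 0.79 (SE 0.15, adjusted p = 0.374). The helicase subunits Mcm6 and Mcm5 differed by 0.22 (SE 0.06) and 0.29 (SE 0.08), and Rrm2, a subunit of ribonucleotide reductase, by 0.55 (SE 0.20). Mitosis genes had a median of 0.01, with 16 of 29 positive. The probe set of the mouse Myc gene differed by -0.62 (SE 0.23, adjusted p = 0.757) with overlapping groups. The sources used here do not say whether it reads the transgene.

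T cell receptor signalling genes were mostly lower: 24 of 27 differences were negative, the median was -0.35, and 5 were lower without overlap (18.5%, against 3.37% of all genes), while none passed adjustment. These 5 were Cd2, an adhesion and costimulatory receptor, Rasgrp1, which couples the receptor to Ras, Cd5, a brake on the receptor, Lcp2, the SLP-76 adaptor, and Zap70, the kinase recruited to the receptor. Cd2 was at 9.22, 9.32 and 9.03 in wild-type and at 6.51, 7.50 and 8.27 in deficient lymphomas, a difference of -1.76 (SE 0.39, adjusted p = 0.434). Rasgrp1 was at 9.11, 9.53 and 8.15 against 5.81, 7.71 and 7.99, a difference of -1.76 (SE 0.60). Cd5 was at 9.04, 9.19 and 9.03 against 5.92, 8.79 and 8.87, so it was low mainly in deficient replicate 1, as was Lcp2 (7.06, against 8.75 and 8.54).

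Deficient replicate 1 carried much of this pattern. Averaged over the receptor signalling list, deficient tumors had 6.94, 7.75 and 7.76, below the 7.93, 8.09 and 7.91 of wild-type tumors. Without deficient replicate 1 the median was -0.17, with 18 of 27 negative, and without wild-type replicate 3 it was -0.21, with 20 negative. The T lineage markers, which share Cd2, Cd5 and Zap70 with this list, had 13 of 18 negative differences and a median of -0.13. Without wild-type replicate 3 these were 9 negative and 9 positive.

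ERK output and immediate early genes, which report signalling through the MAP kinase cascade, had 24 of 31 negative differences and a median of -0.34. Averaged over the list, wild-type lymphomas had 6.18, 6.46 and 5.90, all above the deficient ones with 5.78, 5.68 and 5.74. Dusp6, the phosphatase that switches ERK off and is induced by it, was at 7.83, 8.24 and 6.79 against 5.39, 5.83 and 5.87, a difference of -1.92 (SE 0.36, adjusted p = 0.331). Cd69, an early activation antigen, was at 5.88, 6.80 and 5.07 against 4.18, 4.09 and 3.32, a difference of -2.05 (SE 0.45). Etv5, an ETS factor induced by ERK, was at 8.75, 8.77 and 6.77 against 4.36, 6.52 and 6.10, a difference of -2.44 (SE 0.69). The second Etv5 probe set gave -2.36 (SE 0.77) with overlapping groups.

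Phlda1 and Nab2 were the other members lower without overlap, with differences of -0.93 and -0.87, which makes 5 in all (16.1%, against 3.37% of all genes). Genes of this list did not all go one way. Spry1, a feedback inhibitor, had a positive difference of 0.50 (SE 0.19), and Jun was at 9.02 in deficient replicate 1 but at 4.69 and 4.75 in the other deficient tumors. Wild-type replicate 3 was the lowest wild-type tumor in Dusp6, Cd69 and Etv5, and without it Dusp6 passed adjustment (0.0214).

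Glutathione genes had 17 of 26 positive differences and a median of 0.12, with 4 higher without overlap (15.4%, against 5.15% of all genes). Beside Mgst2 and Gsta4 these included Gsto2 (0.43, SE 0.13), and Gstm1 differed by 1.24 (SE 0.44) with overlapping groups. Notch pathway genes had 20 of 27 positive differences and a median of 0.21. Within this list Dtx3 differed by -0.97, at 6.61, 6.95 and 7.02 in wild-type against 5.70, 5.81 and 6.15 in deficient tumors, while Dtx4 differed by 0.41 (SE 0.11) and the Notch target Nrarp by 0.83 (SE 0.30). Notch1, taken up after its values were seen, owed its difference of 0.99 (SE 0.47) to deficient replicate 2 (8.70, against 6.55 and 7.30).

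The BCL2 family, which sets the threshold for cell death, had both signs among its 4 leading members. Bcl2 itself, which protects cells, was at 5.57, 5.30 and 5.42 in wild-type and at 5.06, 4.88 and 4.90 in deficient lymphomas, a difference of -0.49 (SE 0.14). Bcl2l2, another protective member, differed by 0.52 (SE 0.14). The death-promoting members Bcl2l11 and Bid were higher by 0.97 (SE 0.31) and 0.39 (SE 0.13). All 4 were without overlap (26.7% of the list, against 8.52% of all genes in either direction), and none passed adjustment. The list's median was 0.08.

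The lists in this paragraph and the next had medians between -0.31 and 0.15, and no member of them passed adjustment. Mature single-positive thymocyte genes, which include Gimap7, Gimap8, Cd69 and Itgb7, had the lowest of these medians, -0.31, with 13 of 22 negative. Without overlap, 6 of this list were lower and 1 was higher (31.8%, against 8.52% of all genes in either direction). Double-positive thymocyte genes (0.05) were led by Satb1, a chromatin organiser (1.16, SE 0.36), and early double-negative genes (0.02) by Nfe2 (0.20, SE 0.04). The CDK inhibitors Cdkn1b and Cdkn2b, which hold back the cell cycle, differed by -0.53 and -0.38 without overlap. They are 28.6% of their list, against 3.37% of all genes lower without overlap, and the list's median was -0.06. Targets of p53 (-0.01) included Btg2 (-0.67), which slows proliferation, and Sesn2 (0.68).

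Among immune genes, medians were 0.11 for MHC class I, 0.06 for interferon-stimulated genes, -0.11 for chemokines and their receptors and -0.03 for complement. H2-T10, a class I molecule, was higher by 1.18 (SE 0.39) without overlap, and Cd59a, which protects cells from complement, by 0.88 (SE 0.17). The integrin chains Itgam and Itga6 differed by -0.96 and 0.72 in a list with a median of 0.09. Medians were 0.15 for galectins, -0.04 for Eph receptors and ephrins and -0.02 for Wnt regulators. Imprinted genes had a median of 0.13, and Grb10, an adaptor that restrains growth factor receptors, differed by -2.80 (SE 1.09) with overlapping groups. Marker lists of other cells had medians of 0.04 for B cells, where Cd79b was higher by 1.16, -0.12 for NK and cytotoxic cells, where Eomes differed by -1.69, -0.18 for erythroid cells and 0.08 for stroma, endothelium and thymic epithelium.

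**Figure D4:**
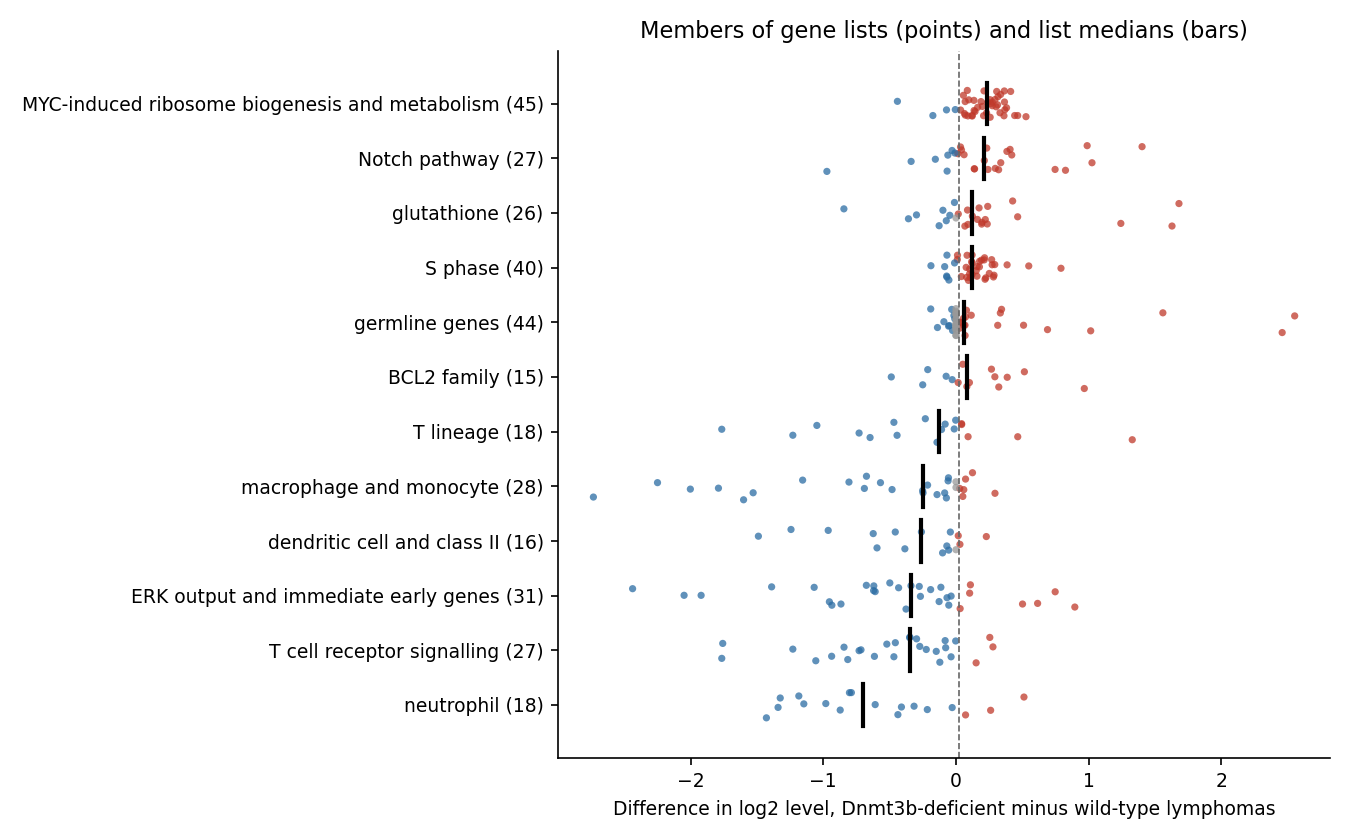
Difference in log2 level (deficient minus wild-type lymphomas, x axis) of each measured member of 12 gene lists, 1 point per gene, red for positive and blue for negative, with a black bar at the list's median over genes above the floor and a dashed line at the median of all genes, 0.02. The medians run from 0.23 for MYC-induced genes to -0.70 for neutrophil markers, and no point in these lists passed adjustment.

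Myeloid marker levels varied between tumors of both genotypes. The mean over 26 macrophage and monocyte genes was 5.56, 5.84 and 4.58 in wild-type lymphomas and 4.47, 5.04 and 4.54 in deficient lymphomas. For 18 neutrophil genes it was 5.82, 5.77 and 4.04 against 4.08, 5.61 and 4.10. Wild-type replicate 3 thus had the low level of deficient replicates 1 and 3, and deficient replicate 2 had a neutrophil level close to that of wild-type replicates 1 and 2. Normal thymocytes ranged from 5.01 to 5.12 for the macrophage list and from 4.46 to 4.83 for the neutrophil list. In bulk tumors, fewer cells of a type and less RNA per cell cannot be told apart.

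Among macrophage genes 20 of 28 differences were negative, the median was -0.25, and Vsig4 and Ms4a7 stood at the floor in every lymphoma. Lyz2, a lysozyme of myeloid cells, was at 9.71, 10.41 and 6.23 in wild-type and at 5.15, 8.28 and 4.73 in deficient tumors, a difference of -2.73 (SE 1.26, adjusted p = 0.808). Ms4a6c (-2.001, SE 0.65) and Ly86 (-0.69, SE 0.31) were the 2 genes lower without overlap (7.14%, against 3.37% of all genes). Adgre1, which encodes F4/80, was no higher than 3.49 in any of the 6 tumors. In the neutrophil list 15 of 18 differences were negative with a median of -0.70, but the groups overlapped widely: S100a8 was at 7.62, 7.43 and 3.76 against 3.54, 7.16 and 4.15. Elane was the 1 neutrophil gene lower without overlap (5.56%, against 3.37% of all genes).

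The dendritic cell and class II list behaved differently. Averaged over 15 genes, deficient lymphomas had 4.91, 5.07 and 4.90, all below the wild-type lymphomas with 5.42, 5.48 and 5.18. Cd74, the invariant chain of class II molecules, was at 7.66, 7.45 and 7.06 against 6.24, 5.89 and 5.57, a difference of -1.49 (SE 0.23, adjusted p = 0.268). H2-Aa, a class II chain, was at 7.90, 7.81 and 7.12 against 6.18, 6.67 and 6.25, a difference of -1.24 (SE 0.33). Xcr1, a receptor of cross-presenting dendritic cells, differed by -0.46 (SE 0.15), while Clec9a of the same cells stood at the floor in all 6 tumors. Cd74 thus separated the genotypes in wild-type replicate 3 and deficient replicate 2 as well, the tumors whose macrophage and neutrophil levels went against their genotype's other tumors.

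**Figure D5:**
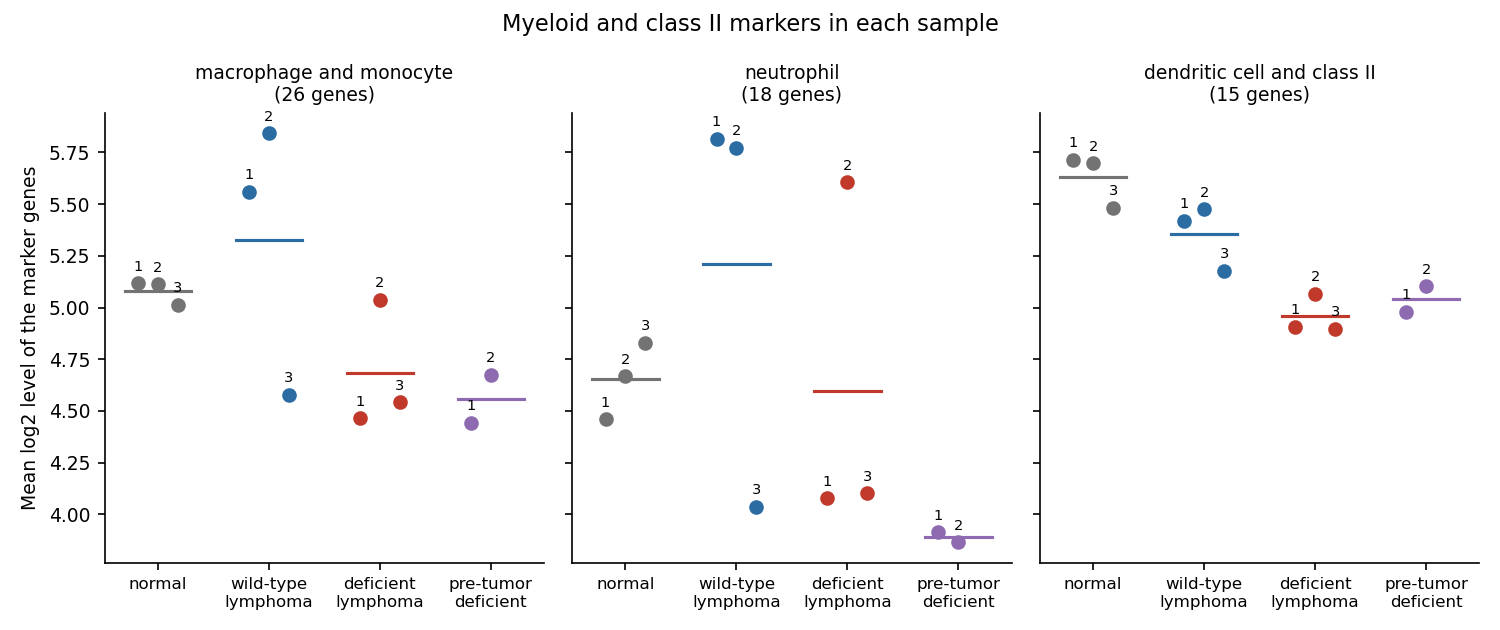
Mean log2 level of 3 marker lists (y axis) in each of the 11 samples, with the replicate number above each point and a line at the group mean. Wild-type replicate 3 and deficient replicate 2 change places in the neutrophil panel (4.04 and 5.61), while the dendritic cell and class II panel keeps the 3 wild-type lymphomas above the 3 deficient ones.

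Each sample's myeloid level was then added to the fit, as the mean over the macrophage, neutrophil, and dendritic cell and class II lists. With it 2 probe sets passed again, AI506816 (5.02) and Ifnz (-0.72). Of the ranked genes, Gimap7 (-1.45), Ment (1.16), Gpd1l (1.08), Lgals1 (1.95), Qser1 (2.41) and Cd74 (-1.32) kept differences close to those of the fit without it. Smaller values were found for Wif1 (-2.29), Etv5 (-1.41), Chst2 (-1.53), Cfb (-1.04), Adamts3 (-1.18) and Ms4a6c (-1.04). Slc7a8 (-1.81), Extl3 (-1.59), Rnf144b (-1.51), Cd69 (-1.51) and Dusp6 (-1.43) were also smaller. Some differences became larger, among them Tspan2 (2.33), Itgb7 (2.01) and Klf3 (1.72). The Gimap family median became -0.46, that of the ERK list -0.22 and that of the macrophage list -0.01, while the MYC-induced list stayed at 0.23. Within the Gimap family, Gimap4 turned positive (0.30) and the other genes stayed negative. The neutrophil list median changed sign, to 0.28. The macrophage, neutrophil and class II lists make up the covariate, so the medians of these lists shrink largely by construction. Cd74 and Ms4a6c are members of these lists, so their values are not separate from the covariate. The part of myeloid cells in the other differences was not tested.

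Wide spread within a genotype involved 1 tumor more than the others. Over the 17041 genes above the floor the median SD was 0.147 in wild-type and 0.171 in deficient lymphomas (n = 3 each). An SD above 1 was found in 204 genes of the wild-type group, where replicate 3 lay farthest from the group median in 82.4%. In the deficient group it was found in 178 genes, with replicate 1 farthest in 71.3%. The widest in wild-type tumors were Gzma, a granzyme (5.92, 4.08 and 9.73), Lcn2, a neutrophil protein (8.75, 9.01 and 4.31), and Gfi1b, a transcription factor of red cell and platelet precursors (5.49, 5.25 and 9.48), followed by Clec4e and Cfb. In deficient tumors they were Bex1 (3.32, 8.21 and 3.73), Jup, or plakoglobin (4.21, 4.45 and 8.72), Hdc, histidine decarboxylase (4.73, 9.22 and 8.87), Rpl39l, a testis ribosomal protein (3.32, 7.63 and 7.68), and Jun. Wild-type tumors all had Rpl39l at the floor, and its 2 high deficient tumors are the same ones as in Syce1 and Brdt.

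The count of probe sets that passed moved most when wild-type replicate 3 or deficient replicate 1 was left out. Without wild-type replicate 3 the count was 88, of which 69 were lower in the deficient tumors, covering 66 named genes. Without deficient replicate 1 it was 82, of which 75 were higher. Of those 82, however, 50 are probe sets without a gene symbol that hold the same value as each other in all 11 samples and so count 1 measurement many times. The other 32 comprise 25 higher and 7 lower probe sets, with 27 named genes. A doubling or more was seen in 63 genes that were higher, of which 41 did not overlap, and in 159 genes that were lower, of which 69 did not overlap. Of all genes, 5.15% were higher and 3.37% lower without overlap. Genes picked for a large difference overlap less by that choice, so these counts are no support for a difference.

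The pre-tumor deficient and normal thymocytes allow the genes chosen in the tumors to be read in samples the choice did not use, although the fit shares their spread. Of 560 probe sets higher in the deficient tumors (no overlap and an unadjusted p under 0.05, 2.75% of probe sets with 1 symbol before predicted and small RNA genes were left out), 253 (45.2%) were also higher in pre-tumor than in normal thymocytes. Among all 18573 probe sets with 1 symbol above the floor in a lymphoma this share was 34.4%. Predicted and small RNA genes were not left out of these 18573, so the 2 sets are not fully alike. Of 424 lower probe sets (2.02% before that step), 314 (74.1%) were lower, against 63.0% of all. MYC and Dnmt3b genotype both differ between pre-tumor and normal samples and cannot be told apart there. The pre-tumor cells were sorted for EGFP, and the labels do not say whether the normal thymocytes were.

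In 50 of the higher and 89 of the lower probe sets the 5 deficient samples all lay on one side of the 6 others, on the side the choice of probe sets had fixed for the lymphomas. Over all 18573 probe sets, predicted and small RNA genes included, this held for 74 that were higher and 132 that were lower. With more than 0.5 between the closest samples these were AI506816, Qser1, Igf2bp3, Mt1 and Extl3, the last being lower. Igf2bp3, an RNA-binding protein of fetal tissue, was at 4.78, 5.48 and 5.66 in wild-type and 6.51, 6.81 and 6.32 in deficient lymphomas, and at 7.04 and 7.36 in pre-tumor thymocytes. Mt1, a metallothionein, was at 9.81, 9.58 and 9.60 against 11.40, 10.76 and 10.37, with 4.79 to 5.74 in normal thymocytes. Lgals1 and Lmo4 went against this pattern, with pre-tumor levels below normal by 1.10 and 0.57.

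Promoters were read from RefSeq (GRCm38.p6) as the 250 bases before each gene's start. They are shown for Ifnz, which passed adjustment, for Ment, and for the ranked genes with the largest differences without overlap in each direction, Wif1 and Sycp1, to let their CpG content be compared. Capitals mark each CpG. AI506816 is left out because its probe set could not be placed.
Ifnz, chr4:88781881-88782130, plus strand: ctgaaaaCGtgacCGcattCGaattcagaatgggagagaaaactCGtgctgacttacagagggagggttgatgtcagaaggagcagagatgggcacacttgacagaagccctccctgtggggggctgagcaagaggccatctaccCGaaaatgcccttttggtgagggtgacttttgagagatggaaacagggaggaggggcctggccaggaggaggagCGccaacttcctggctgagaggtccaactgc
Ment (Gm128), chr3:95241110-95241359, minus strand: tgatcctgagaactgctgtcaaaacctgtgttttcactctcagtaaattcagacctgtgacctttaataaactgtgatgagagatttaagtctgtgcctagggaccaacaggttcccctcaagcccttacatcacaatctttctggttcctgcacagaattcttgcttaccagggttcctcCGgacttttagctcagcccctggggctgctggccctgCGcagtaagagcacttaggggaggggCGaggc
Wif1, chr10:121033754-121034003, plus strand: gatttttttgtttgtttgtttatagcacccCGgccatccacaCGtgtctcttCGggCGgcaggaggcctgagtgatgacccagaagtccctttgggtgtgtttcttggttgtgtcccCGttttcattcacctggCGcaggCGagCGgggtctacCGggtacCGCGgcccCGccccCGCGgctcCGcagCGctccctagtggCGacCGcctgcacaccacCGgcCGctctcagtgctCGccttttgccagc
Sycp1, chr3:102936101-102936350, minus strand: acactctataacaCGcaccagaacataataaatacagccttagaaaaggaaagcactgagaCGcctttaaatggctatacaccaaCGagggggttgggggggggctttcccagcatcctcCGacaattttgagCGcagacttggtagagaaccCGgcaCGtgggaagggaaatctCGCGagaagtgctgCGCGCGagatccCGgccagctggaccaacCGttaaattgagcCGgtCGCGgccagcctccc

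Wif1 and Sycp1 have the CpG-rich kind of promoter, with 21 and 17 CpGs. At least as many are found in 16.1% and 23.6% of the 27025 promoters in the table. Ifnz has 6 and Ment 3, counts reached by 50.5% and 70.4%. The 2 CpG-rich promoters thus belong to genes that differed in opposite directions. Over the sets of higher and lower genes the CpG count hardly differed: the median was 15 in 442 matched genes that were higher (no overlap and unadjusted p under 0.05, a rule met by 2.85% of all genes), 14 in 336 that were lower (2.06%) and 13 in 12617 genes above the floor. A promoter was matched for 80.7%, 82.4% and 80.2% of these sets. Of the macrophage genes above the floor a smaller share, 73.1%, was matched (19 genes), which limits the comparison. Their median was 2 CpGs, and 73.7% of them had under 5, against 20.8% of all genes above the floor.

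The E-box CACGTG, which reads the same on both strands, was found in these windows in 12.7% of the higher genes (56), in 5.36% of the lower genes (18) and in 7.74% of all genes above the floor. Of the 23 germline genes above the floor with a matched promoter, 7 (30.4%) held it, Sycp1 among them, and the promoter of Wif1, a lower gene, held it too. These are matches of letters and say nothing of binding.

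Dnmt3b itself was at 5.36, 5.59 and 5.70 in wild-type and at 5.26, 5.49 and 5.397 in deficient lymphomas. The difference was -0.17 (SE 0.10, adjusted p = 0.899), and a two-sided exact permutation test over the 6 tumors gave p = 0.3, where the smallest p that 20 arrangements allow is 0.1. This level checks neither the deletion nor the labels, since the probes' position relative to the deleted exons is unknown here. Dnmt1 was at 9.57, 9.48 and 9.61 against 9.88, 9.74 and 9.68, a difference of 0.21 (SE 0.06, adjusted p = 0.602) without overlap. Its partner Uhrf1 differed by 0.34 (SE 0.16) and Dnmt3l by 0.09 (SE 0.05), both within the spread of the samples. Dnmt3a ranged from 6.69 to 8.07 in wild-type tumors and differed by -0.12 (SE 0.35). Over the 22 measured genes of the DNA methylation machinery, to which Qser1 also belongs, 11 differences were positive and the median was -0.02. With wild-type replicate 3 left out the sign of the Dnmt3a difference turned, to 0.31.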

How the data were processed

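The authors deposited 1 table of log2 values for the 11 arrays. Partek and RMA are listed in the submitters' processing notes, with neither version nor role, and no source names the genome build of the annotation. No further normalization was applied. Left out as probable controls were 6573 low-numbered probe sets to which the platform annotation gives no gene. Of the 28939 tested, 21789 had 1 gene symbol, 1621 had several and 5529 had none. These symbols stand for 19938 genes, and 999 of them have more than 1 probe set. A gene is counted at its probe set with the highest mean over all arrays, while rankings took every probe set and kept 1 per gene. RefSeq (GRCm38.p6) served for symbols, of which 0 were updated, for chromosomes and for promoters.

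All 11 arrays entered 1 limma fit with a mean for each group (version 3.58.1, R 4.3.3, lmFit followed by eBayes with no trend), and p-values were adjusted by Benjamini-Hochberg over all tested probe sets. The prior degrees of freedom were 0.46 beside 7 residual ones. The fit was tested on simulated data with independent normal noise, in which only probe sets well above the floor were changed. That setting does not cover genes near the floor, recurring values or a single outlying tumor. Replicates are called biological in the labels, so p-values measure the spread between these samples. Differences are deficient minus wild-type.

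Genes named are those past the threshold, the methyltransferase genes, Myc and Ment, and, in each direction, the 10 genes with the largest moderated t, difference or gap among those without overlap at an unadjusted p under 0.05. Predicted and sequence-named genes, small RNA genes and antigen receptor segments were left out of the rankings, except that Ment (Gm128) was kept by choice. To these come up to 4 members of each of 33 gene lists by moderated t, the 6 highest and 6 lowest families, the 5 genes with the largest SD in each group, and members behind a count of 5 or fewer. Further list and family members were chosen after their values were seen. The comparison, the members and the lists were chosen with earlier results of these data known. Alternatives covered normalization, moderation, filters, the samples fitted, a myeloid covariate, a replicate block and each sample left out. Promoter matches count genes by identifier.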

Additional observations from a re-analysis of the deposited data

Results flagged for a closer look

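A signal appeared in probe sets that no comparison names. A group of 50 probe sets without a gene symbol holds 1 value profile: 8.95 in deficient replicate 2 and 8.52 in deficient replicate 3, against 3.32 in deficient replicate 1, 3.32 to 4.002 in wild-type lymphomas, 3.32 to 3.46 in normal thymocytes and 3.47 to 4.01 in pre-tumor thymocytes. Its difference of 3.29 did not pass limma (adjusted p = 0.764). Among 24171 probe sets above the floor there are 23871 distinct profiles at 5 decimals, and the next largest group that shares a profile has 13 probe sets.

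Probe sets 10471154 and 10363541, which carry 2 gene symbols each and are not named, had means of 10.32 and 10.32 in the deficient lymphomas, against 7.51 and 7.55 in wild-type lymphomas. Their differences were 2.81 (SE 0.32) and 2.77 (SE 0.35), with adjusted p-values of 0.140 and 0.182, higher in all 3 deficient tumors. The values of both were close to each other in all 11 samples, farthest apart in wild-type replicate 3 (8.18 and 8.29). They may therefore be 1 signal read by both, which was not tested. Both were also higher in the pre-tumor samples (9.67 and 9.68) than in normal thymocytes (7.84 and 7.82). The nearest named probe sets by number lie on chromosome 2 for the first and on chromosome 10 for the second. Groups of 3 samples are too small for the test of outlying samples used here, so none was run.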

How the results depend on the processing

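The count of 2 calls depended on the setting. It was 1 after quantile normalization, with a variance trend, without moderation, with a difference of at least 1 required and with the replicate block, 7 without probe sets at the floor on all arrays and 11 without those with a mean under 5. Leaving out 1 sample gave 1 to 88. Without the normal samples it was 1 each time, without wild-type replicate 1 it was 5, without deficient replicate 2 it was 9 and without deficient replicate 3 it was 20. The 6 lymphomas alone gave 2 calls, both lower, which did not include AI506816 or Ifnz. AI506816 was called in 23 and Ifnz in 9 of 24 settings. Arrays centred on their medians gave 3 calls and moved the median difference by 0.03. Same-numbered samples did not deviate together (correlations -0.12, -0.04 and 0.01), so the numbers were not taken as pairs, and with the replicate block AI506816 was the 1 call (adjusted p = 0.0430).

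The Dnmt3b difference stayed between -0.26 and -0.09 and was called in no setting. None of the 45 ranked genes changed direction under any of the 23 alternatives, and 27 were called in at least 1. All were picked for no overlap between the genotypes, so leaving out a sample could not turn their direction. Calls in at least 1 setting were not counted over all probe sets, so the 27 are no support for a difference. Of 155 genes tracked, 3 changed direction: Dnmt3a, whose difference ran from -0.70 with the myeloid covariate and -0.38 without wild-type replicate 2 to 0.31 without wild-type replicate 3 and 0.014 without deficient replicate 2, Epor (-0.33 without wild-type replicate 1, 0.017 without wild-type replicate 2) and Fcmr with the myeloid covariate (-0.074). The cause was not tested. Of 33 list medians, 14 changed sign in some setting: those of B cells, CDK inhibitors, DNA methylation machinery, Eph receptors and ephrins, Wnt regulators, complement, early double-negative thymocytes, erythroid cells, galectins, heparan and chondroitin sulfate synthesis, interferon-stimulated genes, mitosis, neutrophils and p53 targets.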

Other observations

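A probe set without a gene symbol, 10556018, had one of the larger separations on the lower side: 8.84, 7.97 and 8.71 in wild-type lymphomas against 5.76, 6.002 and 6.11 in deficient lymphomas. The difference was -2.55 (SE 0.26) and did not pass limma (adjusted p = 0.137), with a gap of 1.86 between the closest tumors, lower in all 3 deficient tumors. Normal thymocytes had a mean of 8.01 and pre-tumor deficient thymocytes 6.20. It was singled out after its values were seen.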
